A study of Mus musculus with 10 samples.

Results

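The genes described here were the 10 mouse genes that build MHC class II molecules and load peptide onto them, namely H2-Aa, H2-Ab1, H2-Eb1, Cd74, Ciita, H2-DMa, H2-DMb1, H2-DMb2, H2-Oa and H2-Ob. They were taken by symbol from a table of RNA-seq counts over 55492 symbols, and all 10 were in the table and had enough counts to be tested. The 10 libraries came from B cells of mouse spleen in 4 groups. Naive B cells on day 0 gave 2 wild-type libraries (naive WT) and 2 libraries from Pcbp1 fl/fl Mb1-Cre mice (naive KO). B cells grown to day 4 on the 40-LB feeder system, called induced germinal center B cells or iGCB, gave 3 wild-type (iGCB WT) and 3 Pcbp1 fl/fl Mb1-Cre libraries (iGCB KO). Pcbp1 encodes a protein that binds C-rich RNA, and the floxed gene is removed by the Mb1-Cre transgene in cells of the B lineage. Mb1-Cre is inserted in Cd79a, and the labels do not say whether the WT mice carried it, nor their sex, their age or their strain. Separate animals are not named either, and the p-values below therefore cover only the spread among these libraries. In the iGCB groups that spread may be technical, and the libraries of each naive group differed in sex, as given below.

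MHC class II molecules display peptides from proteins broken down in endosomes to CD4+ T cells, and B cells use them to obtain T cell help in the germinal center. H2-Aa and H2-Ab1 encode the alpha and beta chains of the I-A molecule and H2-Eb1 encodes the beta chain of I-E. Cd74 encodes the invariant chain, which fills the groove of new class II molecules and guides them to endosomes, where only a fragment of it, CLIP, is left in the groove. H2-DM, made of an H2-DMa chain and an H2-DMb1 or H2-DMb2 chain, exchanges CLIP for peptide, and H2-O, made of H2-Oa and H2-Ob, binds and inhibits H2-DM. Ciita encodes the coactivator that switches these genes on through factors bound to their promoters.

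In mm10 with GENCODE M21, 8 of the 10 genes lay together on chromosome 17. From left to right these were H2-Oa (34092340 to 34095234), H2-DMa (34119541 to 34139101), H2-DMb2 (34143307 to 34151555), H2-DMb1 (34153072 to 34160230), H2-Ob (34238903 to 34254414), H2-Ab1 (34257689 to 34269419), H2-Aa (34282744 to 34287823) and H2-Eb1 (34305867 to 34316674). H2-Aa was on the minus strand and the other 7 were on the plus strand. Ciita and Cd74 lie on other chromosomes. All 10 were annotated as protein-coding.

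Class II promoters are known for a shared set of boxes, among them an X box bound by the RFX complex and a Y box bound by NF-Y, on which Ciita is recruited. The stretches below come from genes that fell from naive to iGCB cells (H2-Eb1, H2-Ob, H2-Aa and H2-Oa) and from H2-DMb2, which did not fall. They are examples, and a link of these letters to the stage differences was not tested. H2-DMb1 is not printed because its stretch lies in an annotated untranslated region, and H2-DMa because its match lies farther from the start. RefSeq promoter windows of 300 bases (250 before to 50 after the start, build GRCm38.p6) were at hand for 7 of the 10 genes, with 8 windows, and H2-Ab1, Cd74 and Ciita had none. The letters searched on both strands were ATTGG for the Y box and, for an X box, AG and AC and ATG each set apart by 2 bases of any kind, and these patterns did not overlap in any stretch shown. Capitals mark matches on either strand (the second Y match of H2-Eb1 is on the other strand and reads CCAAT here), each stretch is written 5′ to 3′ on the gene's own strand, and it runs from 120 to 21 bases before the start (for H2-Oa, to 39 bases before it).
H2-Eb1, chr17:34305747-34305846, plus strand: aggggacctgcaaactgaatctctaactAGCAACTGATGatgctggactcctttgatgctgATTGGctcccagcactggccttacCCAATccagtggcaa
H2-Ob, chr17:34238785-34238884, plus strand: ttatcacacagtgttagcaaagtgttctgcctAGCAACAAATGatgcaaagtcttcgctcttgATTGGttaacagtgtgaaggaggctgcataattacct
H2-DMb2, chr17:34145129-34145228, plus strand: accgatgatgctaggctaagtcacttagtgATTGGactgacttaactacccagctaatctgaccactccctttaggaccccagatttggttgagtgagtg
H2-Aa, chr17:34287844-34287943, minus strand: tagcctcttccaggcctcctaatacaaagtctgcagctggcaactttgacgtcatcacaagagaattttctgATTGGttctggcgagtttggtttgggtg
H2-Oa, chr17:34092259-34092340, plus strand: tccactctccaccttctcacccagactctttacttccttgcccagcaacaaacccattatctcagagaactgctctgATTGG

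All 7 genes had a Y match in a window, against 37.4% of 32851 windows in the same table. The X letters followed by the Y letters on one strand, with starts 20 to 45 bases apart, were found in H2-Eb1 (33 bases apart), H2-Ob (31) and H2-DMb1 (34), and in 0.0852% of all windows (28 windows). The X letters alone were in 3.09% of windows. H2-Oa also held the X letters, 141 bases before its start and outside the stretch shown, and H2-DMa held the Y letters 198 bases before the start of 1 of its 2 windows. A match describes the letters only, and no match says only that these letters were not in the window. Near matches were not searched. The stretches of H2-DMb2, H2-Aa and H2-Oa, with only the Y letters in capitals, may therefore still hold an X box.

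The libraries held 33400672 to 63576147 counts. The targeted gene was checked first, in CPM, counts scaled to the size of the library. Pcbp1 read 153 and 83.9 CPM (naive WT), 4.33 and 0.448 (naive KO), 148, 327 and 326 (iGCB WT) and 3.71, 1.96 and 2.59 (iGCB KO). It was thus low in all 5 KO libraries, although its naive difference had an adjusted p of 0.0561 (edgeR quasi-likelihood test, Benjamini-Hochberg adjustment over 21010 genes), against 0.00151 in iGCB. Cd79a, the site of Mb1-Cre, was also lower in KO, at 414 to 432 CPM against 1173 to 1387 in naive cells and 342 to 438 against 773 to 822 in iGCB. In all KO against WT comparisons here, Pcbp1 loss, the Cre insertion and the lower Cd79a cannot be told apart. Fas, a marker of germinal center B cells, was at 4.08 to 7.46 CPM in the 4 naive libraries and 133 to 175 in the 6 iGCB libraries. Of 10 markers of germinal center and cycling cells, 8 were higher and 2 lower in iGCB WT than in naive WT (adjusted p under 0.05, edgeR). The lower ones were Bcl6 and Nuggc. In KO 8 were higher and 1 lower (Nuggc), and Bcl6 was not called. Among all genes tested 24.7% were higher and 31.7% lower in WT, and 24.8% and 31.4% in KO. By Xist and Y-linked transcripts naive WT 1 and naive KO 1 were female and the other 8 libraries male, so the iGCB against naive comparisons also set male libraries against a mix of both sexes.

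Markers of other antigen-presenting cells differed between the stages. The summed level of 23 dendritic cell, macrophage and monocyte markers was 1441 to 1640 CPM in naive WT, 904 to 1893 in naive KO, 291 to 440 among iGCB WT libraries and 450 to 528 among iGCB KO libraries. Of 13 macrophage and monocyte markers, 11 were lower in iGCB WT than in naive WT (adjusted p under 0.05, edgeR). In KO 9 were lower, and the rest were not called in either genotype. Among the defining genes, Csf1r was at 14.2 to 162 CPM in the naive libraries and 0.234 to 4.05 in iGCB, and C1qa at 3.27 to 60.1 in naive and 0 to 0.0588 in iGCB. Lyz2 overlapped between the stages, at 6.90 to 46.1 CPM in naive and 4.35 to 41.2 in iGCB. Of 10 dendritic cell markers, 5 were lower and 3 higher in iGCB WT than in naive WT, at an adjusted p under 0.05 (edgeR). In KO 4 were lower and 4 higher. Among all genes tested 31.7% were lower and 24.7% higher in WT, and 31.4% and 24.8% in KO. Itgax was at 4.35 to 23.9 CPM in naive and 0.292 to 6.47 in iGCB. The dendritic cell genes Flt3 and Zbtb46 went the other way, at 4.98 to 8.72 and 2.13 to 4.26 CPM in naive and 30.5 to 78.8 and 31.0 to 48.6 in iGCB. Such cells express class II genes as well, and their part in the differences between stages was not tested. Other marker lists moved with the stage as well. The summed level of 12 fibroblast markers, for the feeder cells, was 1.99 to 20.2 CPM in naive and 32.8 to 80.9 in iGCB libraries, with Col1a1 at 0 to 0.555 and 13.1 to 29.5. The sum of 10 B cell markers was 10670 to 11410 CPM in naive WT and 5593 to 6338 in iGCB WT, and 8615 to 9116 and 6988 to 7182 in KO. The sum of 10 plasma cell markers was 1317 to 1602 and 2776 to 3039 in WT, and 1550 to 1703 and 1675 to 1898 in KO. The sum of 10 red cell and platelet markers was 31.4 to 219 in naive and 3.27 to 8.74 in iGCB libraries. The part of these cells was not tested either. In all bulk values here, fewer cells of a type and less RNA per cell cannot be told apart.

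The 10 genes together took 2.37% and 2.24% of the counts for naive WT, 2.41% and 2.12% for naive KO, 1.08%, 1.15% and 1.07% for iGCB WT and 1.004%, 1.32% and 1.08% for iGCB KO. The share was lower in all 6 iGCB libraries than in any naive library. It was 2.30% ± 0.09 (SD, n = 2) against 1.10% ± 0.04 (n = 3) in WT, with an exact two-sided permutation p of 0.2, the smallest that 2 against 3 libraries allow. KO and WT overlapped at both stages, with exact permutation p of 1.0 in naive cells and 0.8 in iGCB.

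Per length of exon, Cd74 was at the top in every library and its level in naive WT was 7932 ± 841 CPM per kb (SD, n = 2). The classical chains came next, with H2-Ab1 at 1422 ± 142, H2-Eb1 at 877 ± 59 and H2-Aa at 701 ± 36 CPM per kb. H2-DMb2 followed at 344 ± 46, then H2-Ob at 139 ± 7 and H2-DMb1 at 137 ± 22, whose ranges overlapped, and H2-DMa at 113 ± 10. The inhibitor chain H2-Oa at 72.1 ± 2.9 and Ciita at 49.5 ± 3.5 CPM per kb were lowest. All other neighbours in this order were apart in both naive WT libraries. The order depends on the lengths, which merged all annotated exons of a gene (3798 bases for H2-Aa and 1944 for H2-Eb1). Their longest coding transcripts had 1128 and 1669 bases. In CPM H2-Aa (2661 on average) was above H2-Eb1 (1705) in naive WT.

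In iGCB WT the order of levels per kb changed in the middle. Cd74 was at 2766 ± 264 CPM per kb (SD, n = 3), and H2-Ab1 (584 ± 69), H2-Eb1 (540 ± 60) and H2-Aa (478 ± 43) came next with ranges that overlapped from each to the next. H2-DMa, eighth in naive WT, was now sixth at 208 ± 26 CPM per kb, above H2-DMb1 (74.1 ± 10.4) and H2-Ob (71.9 ± 5.6), which overlapped. The KO groups differed from WT at the lower end, where H2-Oa per kb was below Ciita in every KO library and above it in every WT library. In naive KO these levels were 34.6 ± 6.0 and 51.5 ± 2.2 CPM per kb, and in iGCB KO 22.2 ± 3.7 and 30.5 ± 3.6. Where the 2 genes cross depends on the lengths used (1407 bases of merged exons for H2-Oa and 9535 for Ciita). In CPM H2-Oa was below Ciita in every library, WT and KO.

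**Figure D1:**
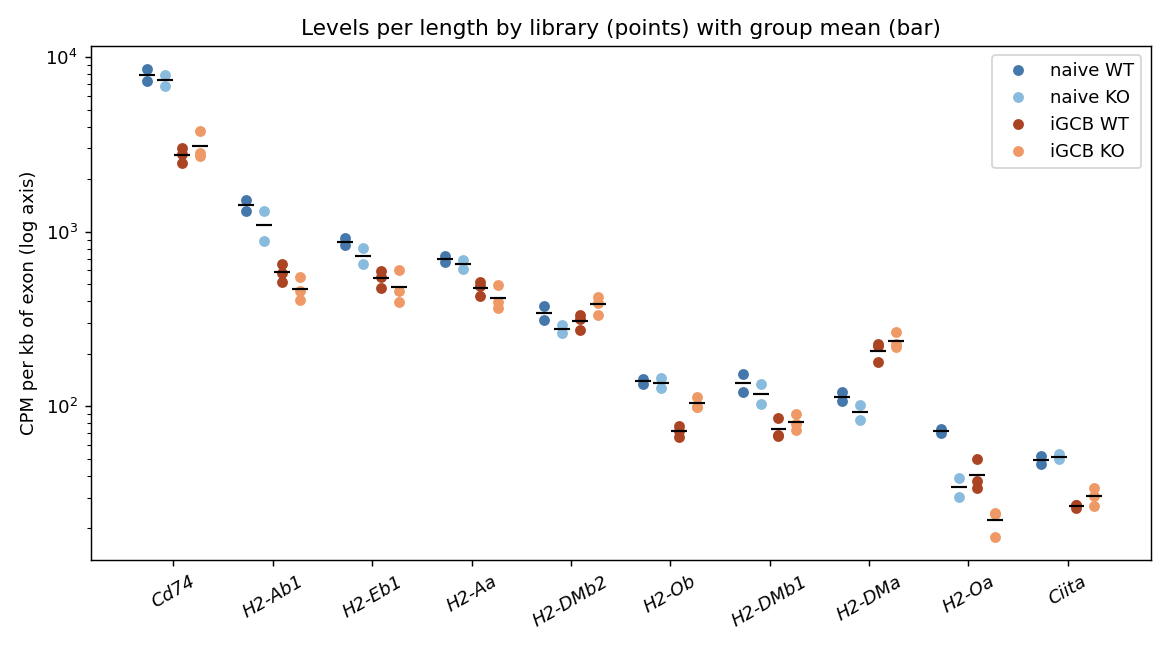
Levels of the 10 genes in CPM per kb of exon (vertical log axis), with 1 point per library, a bar at the group mean and a colour per group. Cd74 lies above all other genes in every group and H2-DMa rises from naive to iGCB. On this scale H2-Oa lies below Ciita in the KO groups only, while in CPM it was below Ciita in every group.

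Most of the class II genes were lower in iGCB than in naive cells, while the H2-DM alpha chain was higher. In WT cells 8 of the 10 genes were lower, 1 was higher and 1 was not called, at an adjusted p under 0.05. In the background 56.4% of all genes tested were called (31.7% lower and 24.7% higher), and the median log2 difference was -0.86 for the 10 genes and -0.25 for all genes. In KO cells 8 were lower and 2 higher, where 56.2% of all genes were called (31.4% lower and 24.8% higher), with medians of -0.61 and -0.26. The KO count was the less firm one: without 1 library it was 3 lower (without iGCB KO 1), 4 (without naive KO 1) or 5 (without iGCB KO 3), and it was 5 with a term for sex and 4 with male libraries only. The count of higher genes in KO was 1 without naive KO 1, naive KO 2, iGCB WT 2, iGCB KO 2 or iGCB KO 3. The WT count of lower genes was 6 to 8 on leaving out a library. The stages did not overlap for 9 genes in WT and 10 in KO, against 72.5% and 75.5% of all genes. The WT and KO comparisons share no library, although they share the fit and its estimate of the spread.

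**Figure D2:**
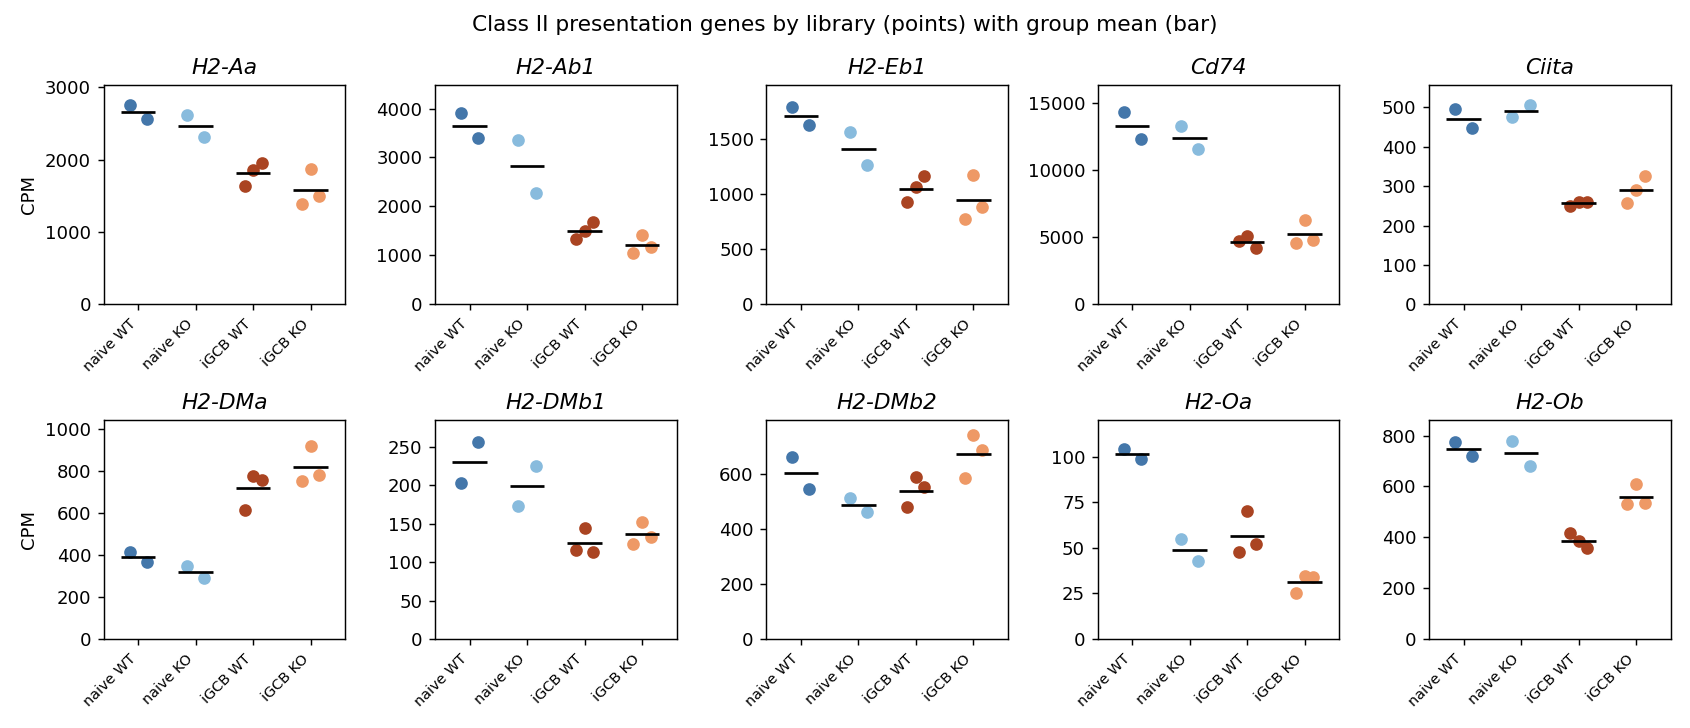
CPM of each of the 10 genes (vertical axes, each from 0) in the 4 groups, with 1 point per library and a bar at the group mean. Cd74, H2-Ab1, Ciita and the other classical chains are lower in the iGCB groups, H2-DMa is higher there, and H2-Oa is lower in KO than in WT at both stages.

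Cd74, the invariant chain (chromosome 18, 60803848 to 60812652, plus strand), fell most in WT. It read 14316 and 12319 CPM (naive WT), 13291 and 11539 (naive KO), 4689, 5063 and 4181 (iGCB WT) and 4570, 6305 and 4770 (iGCB KO). Every iGCB library was below every naive library, and iGCB KO 2 stood above the other iGCB libraries. The log2 difference between stages was -1.52 (SE 0.20, adjusted p = 0.000135, edgeR) in WT, a 2.87-fold fall, and -1.25 (SE 0.20, adjusted p = 0.000495) in KO.

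The I-A beta chain gene H2-Ab1 also fell strongly. It read 3909 and 3393 CPM (naive WT), 3362 and 2279 (naive KO), 1327, 1493 and 1682 (iGCB WT) and 1047, 1417 and 1177 (iGCB KO). The 2 naive KO libraries lay far apart, but neither reached the iGCB range. The log2 difference was -1.28 (SE 0.21, adjusted p = 0.000535, edgeR) in WT and -1.22 (SE 0.21, adjusted p = 0.000772) in KO.

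The I-A alpha chain gene H2-Aa and the I-E beta chain gene H2-Eb1 fell less. H2-Aa read 2758 and 2564 CPM (naive WT), 2619 and 2313 (naive KO), 1636, 1862 and 1954 (iGCB WT) and 1385, 1878 and 1496 (iGCB KO), with log2 differences of -0.55 (SE 0.18, adjusted p = 0.0238, edgeR) in WT and -0.64 (SE 0.18, adjusted p = 0.0121) in KO. H2-Eb1 was at 1786 and 1624, 1559 and 1266, 926, 1065 and 1160, and 770, 1174 and 885 CPM in the same order of groups, with log2 differences of -0.70 (SE 0.20, adjusted p = 0.0136) and -0.58 (SE 0.20, adjusted p = 0.0311). The naive and iGCB libraries of each genotype did not overlap for either gene. These calls were the less firm ones. In WT, H2-Aa was not called without naive WT 1 (adjusted p = 0.0774), iGCB WT 1 (0.0800) or iGCB WT 2 (0.0527), without the low-count filter (0.0610), with only the groups compared (0.0767) or with male libraries only (0.0629), and H2-Eb1 not without naive WT 1 (0.0530) or iGCB WT 1 (0.0502). In KO, H2-Aa was not called without naive KO 1 (0.0839) or iGCB KO 1 (0.0553) or with male libraries only (0.0503). H2-Eb1 was not called in KO without naive KO 1 (0.206), iGCB KO 1 (0.115) or iGCB KO 3 (0.0895), with a term for sex (0.0685) or with male libraries only (0.154).

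H2-Eb1 overlaps Gm20513, an antisense gene on the other strand, and the strand setting of the counting is not given in the sources used here, so reads of the 2 cannot be told apart. Gm20513 was at 82.4 to 136 CPM in the 4 naive libraries and 1.66 to 3.34 in the 6 iGCB libraries. Its log2 difference between stages was -5.40 (SE 0.27, adjusted p = 2.91e-07, edgeR) in WT and -5.49 (SE 0.27, adjusted p = 3.38e-07) in KO. It was singled out after its values were seen.

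Because the chains fell unequally, the proportions of the transcripts within a library changed. The log2 ratio of H2-Aa to H2-Ab1, per kb, was -1.07 and -0.97 for naive WT, -0.92 and -0.54 for naive KO, -0.26, -0.25 and -0.35 for iGCB WT and -0.18 ± 0.03 (SD, n = 3) for iGCB KO. The ratio was higher in all iGCB libraries than in any naive library. Its distance from equal levels depends on the lengths used, which merged all annotated exons (3798 bases for H2-Aa and 2568 for H2-Ab1). The longest coding transcripts had 1128 and 1212 bases, so nearness to equal levels cannot be read from these values. The log2 ratio of Cd74 to the 3 classical chains summed was 1.40 ± 0.04 (n = 2) for naive WT, 1.59 ± 0.13 (n = 2) for naive KO, 0.79 ± 0.26 (n = 3) for iGCB WT and 1.18 ± 0.05 (n = 3) for iGCB KO. It was lower in iGCB than in naive cells of each genotype without overlap, and the 2 iGCB groups did not overlap either (exact two-sided permutation p = 0.1, the smallest possible for 3 against 3, 0.35 after Benjamini-Hochberg adjustment over 28 tests of such ratios and shares). Apart from H2-O to H2-DM and the share of counts, these ratios were chosen after the values were seen.

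Ciita, the coactivator (chromosome 16, 10480059 to 10528418, plus strand), fell by 0.88 on the log2 scale in WT (SE 0.15, adjusted p = 0.000593, edgeR) and by 0.76 in KO (SE 0.15, adjusted p = 0.00157). It read 495 and 448 CPM (naive WT), 477 and 506 (naive KO), 250, 260 and 259 (iGCB WT) and 257, 291 and 325 (iGCB KO). The 3 iGCB WT libraries were nearly equal, and no iGCB library reached the naive range. Dexi, which overlaps Ciita on the other strand, was at 67.0 to 94.9 CPM in naive and 36.5 to 64.0 in iGCB libraries.

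The 3 H2-DM genes, whose product loads peptide, did not move together. H2-DMa read 415 and 367 CPM (naive WT), 350 and 290 (naive KO), 617, 780 and 759 (iGCB WT) and 757, 921 and 784 (iGCB KO). Every iGCB library was above every naive library, with log2 differences of 0.88 (SE 0.18, adjusted p = 0.00199, edgeR) in WT and 1.36 (SE 0.18, adjusted p = 0.000144) in KO. H2-DMa overlaps Brd2 on the other strand, and Brd2 went the opposite way, from 633 to 906 CPM in naive to 351 to 396 in iGCB libraries.

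H2-DMb1 read 203 and 256 CPM (naive WT), 173 and 225 (naive KO), 116, 145 and 113 (iGCB WT) and 123, 152 and 133 (iGCB KO). It fell, with log2 differences of -0.88 in WT (SE 0.19, adjusted p = 0.0023, edgeR) and -0.55 in KO (SE 0.19, adjusted p = 0.0274). The KO call was lost without naive KO 2 (log2 difference -0.34, adjusted p = 0.254), iGCB KO 1 (0.0898) or iGCB KO 3 (0.0707).

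H2-DMb2 read 659 and 545 CPM (naive WT), 511 and 460 (naive KO), 478, 586 and 551 (iGCB WT) and 583, 739 and 687 (iGCB KO). The WT stages overlapped (log2 difference -0.16, SE 0.17, adjusted p = 0.439, edgeR). In KO the iGCB libraries were above the naive ones, by 0.46 on the log2 scale (SE 0.17, adjusted p = 0.0410), and this call was not firm: the adjusted p was 0.0766 without naive KO 1, 0.209 without naive KO 2, 0.0516 without iGCB WT 2, 0.0978 without iGCB KO 2 and 0.0914 without iGCB KO 3. It was also lost with RLE scaling (0.0765), library size alone (0.0670) and no low-count filter (0.0716). The test of whether the stage difference was unlike in KO and WT gave 0.62 (SE 0.24, unadjusted p = 0.0263) with an adjusted p of 0.718.

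H2-DMb1 and H2-DMb2 are near copies. Their longest coding transcripts were 71.8% identical with a longest shared run of 221 bases, so reads may have been split between them and their separate values are uncertain. The other pairs of the 8 genes on chromosome 17 shared runs of at most 37 bases (H2-Ab1 and H2-Eb1). With H2-DMb1 and H2-DMb2 summed, the log2 ratio of H2-DMa to them, per kb, was -2.09 ± 0.05 (SD, n = 2) for naive WT, -2.10 ± 0.20 (n = 2) for naive KO, -0.88 ± 0.07 (n = 3) for iGCB WT and -0.96 ± 0.08 (n = 3) for iGCB KO. The ratio was 1.21 higher on the log2 scale in iGCB WT than in naive WT and 1.14 higher in KO, with no overlap of stages (exact permutation p = 0.2 for each, the smallest possible).

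The log2 ratio of H2-DMb1 to H2-DMb2 was split within the naive groups. It was -1.64 in naive WT 1 and -1.51 in naive KO 1, the female libraries, against -1.03 in naive WT 2 and -0.98 in naive KO 2, the male libraries. All 6 iGCB libraries, which were male, were lower still, at -2.06 ± 0.14 (SD, n = 3) in WT and -2.24 ± 0.06 (n = 3) in KO. The female naive libraries were also the deeper ones, with 63576147 (WT) and 58983878 (KO) counts. The male naive libraries had 39625752 (WT) and 41316698 (KO). Sex, depth and replicate number therefore cannot be told apart in the naive split.

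Both H2-O genes were lower in iGCB. H2-Ob read 774 and 719 CPM (naive WT), 778 and 682 (naive KO), 417, 387 and 357 (iGCB WT) and 531, 611 and 534 (iGCB KO). It fell by 0.95 on the log2 scale in WT (SE 0.15, adjusted p = 0.00042, edgeR), and its fall by 0.39 in KO (SE 0.15, adjusted p = 0.0498) was at the threshold. The KO call was lost without naive KO 1 (0.280), naive KO 2 (0.0848), iGCB WT 1 (0.0638), iGCB WT 2 (0.0711), iGCB KO 1 (0.137) or iGCB KO 3 (0.127), without the low-count filter (0.150), with a term for sex (0.0956) or with male libraries only (0.202). H2-Oa fell by 0.84 in WT (SE 0.21, adjusted p = 0.00612) and by 0.64 in KO (SE 0.21, adjusted p = 0.0234), and the KO call was lost without naive KO 1 (0.186) or iGCB KO 1 (0.0833), with a term for sex (0.0587) or with male libraries only (0.147).

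The ratio of transcripts of the inhibitor H2-O to those of H2-DM moved with the stage. As a log2 ratio of the summed counts per kb it was -1.504 and -1.49 for naive WT, -1.44 and -1.61 for naive KO, -2.23, -2.41 and -2.54 for iGCB WT and -2.43, -2.50 and -2.50 for iGCB KO. It was 0.90 lower in iGCB WT than in naive WT and 0.95 lower in KO, without overlap (exact two-sided permutation p = 0.2 for each, the smallest possible). KO and WT overlapped at both stages, with differences of -0.03 in naive cells and -0.08 in iGCB (exact permutation p = 1.0 and 0.6). The sums join alpha and beta chain transcripts and do not measure the paired proteins. In iGCB the KO differences of H2-Oa (log2 -0.86) and H2-Ob (0.53) go opposite ways within the sum. Without division by length the KO against WT differences of the ratio were 0.16 in naive cells and 0.18 in iGCB.

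**Figure D3:**
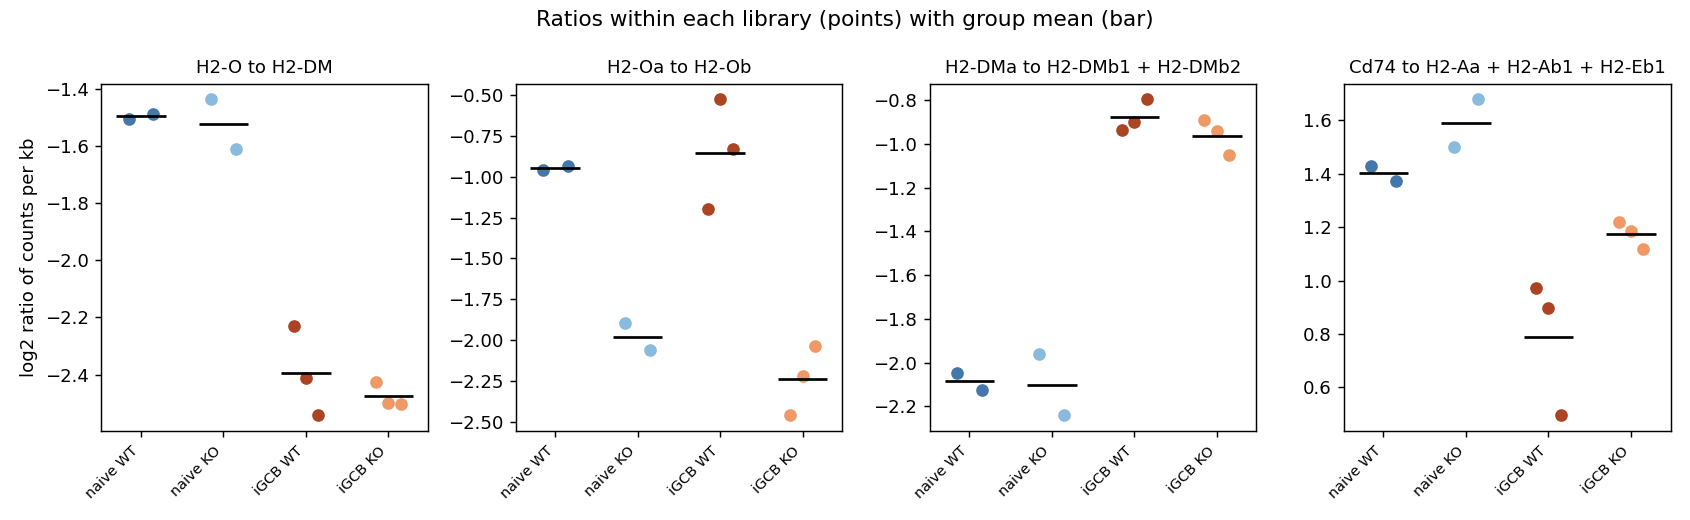
Log2 ratios of counts per kb within each library (vertical axes, not starting at 0) for 4 sets of genes, with 1 point per library and a bar at the group mean. The H2-O to H2-DM ratio falls from naive to iGCB, the H2-DMa to H2-DMb ratio rises, and the H2-Oa to H2-Ob ratio is lower in the KO libraries than in the WT libraries of each stage.

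No class II gene passed the threshold between KO and WT cells at either stage. In naive cells 0 of the 10 genes were called (edgeR), where 0.0476% of all genes were, and 1 had an unadjusted p under 0.05, against 5.55% of all genes. In iGCB 0 of the 10 were called, where 1.27% of all genes were, and 2 had an unadjusted p under 0.05, against 9.76% of all genes. DESeq2 called 1 gene in naive cells (H2-Oa), where it called 0.816% of all genes with an adjusted p, and 2 in iGCB (H2-Oa and H2-Ob), where it called 5.8%. The naive groups of 5 genes and the iGCB groups of 2 genes did not overlap, against 24.2% and 20.5% of all genes. The median log2 difference was -0.24 in naive cells and 0.15 in iGCB, against -0.05 and 0.0 over all genes.

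**Figure D4:**
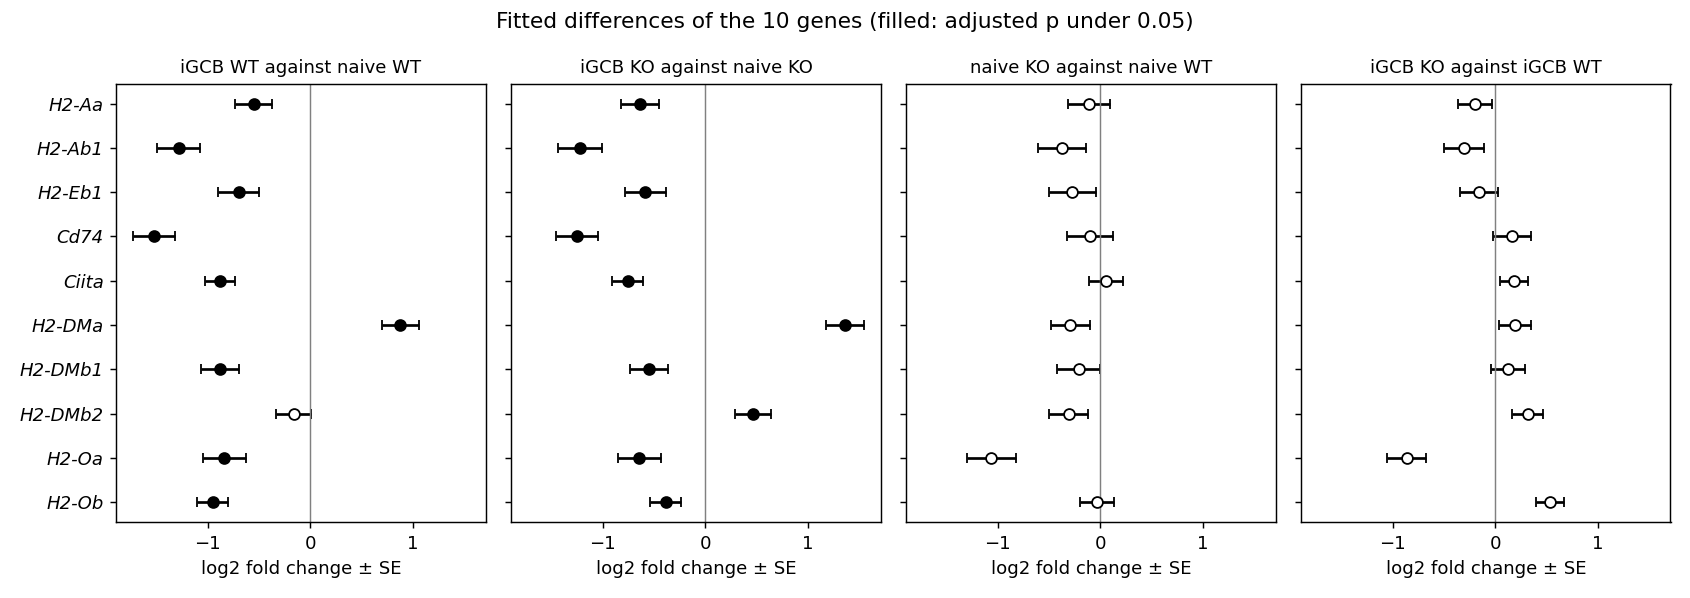
Fitted log2 fold changes with SE (horizontal axes) of the 10 genes in 4 comparisons, filled where the adjusted p was under 0.05. The stage comparisons hold all of the filled points, all points of the KO against WT comparisons are open, and H2-Oa lies farthest to the left in both of these.

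H2-Oa, the H2-O alpha chain, showed the largest KO difference of the 10 genes at both stages. It read 104 and 98.6 CPM (naive WT), 54.6 and 42.8 (naive KO), 47.6, 70.2 and 52.4 (iGCB WT) and 25.2, 34.4 and 34.0 (iGCB KO). The KO and WT libraries did not overlap at either stage, and the naive KO libraries lay in or near the range of iGCB WT. The log2 difference was -1.06 in naive cells (SE 0.23, unadjusted p = 0.00088, adjusted p = 0.264, edgeR), a level 2.08-fold lower, and -0.86 in iGCB (SE 0.19, unadjusted p = 0.00091, adjusted p = 0.0611), 1.82-fold lower. Neither passed the threshold over all genes, and the difference of the 2 effects was 0.20 (SE 0.30, adjusted p = 1.0).

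The iGCB call of H2-Oa changed with the fit while its value stayed between -0.68 and -0.97. It passed the threshold with DESeq2 (adjusted p = 0.000794), without the low-count filter (0.000921), with library size alone as scaling (0.0465), with only the iGCB libraries in the fit (0.0187), with a term for sex (0.0219), with male libraries only (0.0252) and without naive WT 2 (0.0410). All 6 iGCB libraries were male, so the sex term and the male restriction do not adjust this difference for sex. They change it only through the naive libraries in the shared fit. Without any 1 of the 6 iGCB libraries the adjusted p was 0.0754 to 0.272. In naive cells it passed with DESeq2 (0.00525) and without the low-count filter (0.00816). The naive difference was -0.93 between the female libraries and -1.20 between the male ones, so it was seen in both. The overlapping antisense gene BC051537 was at 0.403 to 2.10 CPM, far below H2-Oa in every library.

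H2-Ob, the partner chain, went the other way in iGCB, without passing the threshold. All 3 iGCB KO libraries were above the iGCB WT libraries, by 0.53 on the log2 scale (SE 0.14, unadjusted p = 0.00267, adjusted p = 0.120, edgeR), and the naive difference was -0.03 (SE 0.17, adjusted p = 1.0). The iGCB difference passed the threshold with DESeq2 (0.000178), with a term for sex (0.0355), with only the iGCB libraries in the fit (0.0329) and with male libraries only (0.0494), at 0.52 to 0.54 in these. As for H2-Oa, the sex term and the male restriction do not adjust the iGCB difference for sex. The test of the difference between the stages gave 0.56 (SE 0.22, unadjusted p = 0.0253, adjusted p = 0.708).

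The log2 ratio of H2-Oa to H2-Ob within a library, per kb, set these genes side by side without any scaling between libraries. It was -0.96 and -0.93 for naive WT, -1.90 and -2.06 for naive KO, -1.20, -0.53 and -0.83 for iGCB WT and -2.46, -2.22 and -2.04 for iGCB KO. All 5 KO libraries were below all 5 WT libraries. The KO minus WT difference was -1.04 in naive cells (exact two-sided permutation p = 0.333, the smallest possible for 2 against 2) and -1.39 in iGCB (exact p = 0.1, the smallest possible for 3 against 3, adjusted p = 0.35). This ratio was chosen after the values of both genes were seen, so it is a description.

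The other 8 genes had smaller differences between KO and WT than H2-Oa at both stages, and than H2-Ob in iGCB only. In naive cells their log2 differences ran from -0.37 (H2-Ab1, SE 0.24) to 0.06 (Ciita, SE 0.16), and all had adjusted p of 1.0 (edgeR). Among the classical chains the naive KO 2 library was the lowest of the naive libraries, and the log2 difference of H2-Ab1 was -0.57 in the male pair and -0.22 in the female pair. That library also had the lowest summed level of dendritic cell and macrophage markers, 904 CPM, against 1441 to 1893 in the other naive libraries, and the part of these cells in the result was not tested. With library size alone as scaling, H2-Aa (0.02) and Cd74 (0.04) turned to above 0 in naive KO against WT, where the median of all genes moved by 0.12.

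In iGCB the other 8 log2 differences ran from -0.31 (H2-Ab1, SE 0.19, adjusted p = 0.696, edgeR) to 0.32 (H2-DMb2, SE 0.15, adjusted p = 0.557). The 3 classical chains were below 0 (H2-Aa -0.20, H2-Eb1 -0.16) and Cd74 (0.17), Ciita (0.18), H2-DMa (0.19), H2-DMb1 (0.13) and H2-DMb2 were above 0, all with overlapping groups. Cd74 was at -0.0033 without iGCB KO 2. The test of the difference between stages called 0 of the 10 genes, where 0.0333% of all genes were called, and 2 had an unadjusted p under 0.05 (H2-DMb2 and H2-Ob), against 6.06% of all genes. DESeq2 called 0 as well, and 1.41% of all genes.

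The other genes of the pathway were taken from fixed lists, whose counts stand beside 31.7% lower and 24.7% higher among all genes in WT and 31.4% and 24.8% in KO. Of 11 factors that bind or act at class II promoters, 5 were lower and 4 higher in iGCB WT against naive WT, and 4 were lower and 3 higher in KO. The histone acetyltransferases Crebbp and Ep300, which Ciita works with, fell by 2.33 (SE 0.20, adjusted p = 7.79e-06, edgeR) and 1.57 on the log2 scale in WT and by 2.35 and 1.54 in KO. Rfxap, a subunit of the RFX complex, rose by 1.43 in WT and 1.86 in KO, and Nfyb, a subunit of NF-Y, by 1.37 and 1.62. KO against WT called 0 of the 11 at either stage, where 0.0476% of all genes were called in naive cells and 1.27% in iGCB.

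Of 15 regulators of Ciita, 10 were lower and 2 higher in iGCB WT and 8 were lower and 1 higher in iGCB KO, against naive cells, where 31.7% and 31.4% of all genes were lower. The B cell factors Ebf1 (-3.67, SE 0.27, adjusted p = 2.4e-06, edgeR), Pax5 (-2.04) and Ets1 (-2.11) fell in WT, and also in KO (-2.93, -1.40 and -1.91). Zbtb32, a repressor of Ciita, fell by 4.50 in WT and by 3.16 in KO, from low levels of 9.19 ± 5.08 and 11.4 ± 4.4 CPM (SD, n = 2 each). Prdm1, which encodes Blimp-1, the plasma cell factor that represses Ciita, was the 1 gene of the list called between iGCB KO and iGCB WT. In that comparison 1.27% of all genes were called. Prdm1 was at 10.1 ± 2.7 CPM in KO and 49.3 ± 22.4 in WT (SD, n = 3 each), a log2 difference of -2.28 (SE 0.37, adjusted p = 0.0144), and the call was lost without each of the 3 iGCB KO libraries. The summed level of 10 plasma cell markers was 1675 to 1898 CPM in iGCB KO and 2776 to 3039 in iGCB WT. Ciita itself was 0.18 higher in iGCB KO with overlapping groups, as given above.

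Of 15 genes of endosomal processing, 6 were higher and 3 lower in iGCB WT and 4 higher and 3 lower in iGCB KO, which is near the 56.4% and 56.2% of all genes called. The proteases Ctsl (2.08, SE 0.34, adjusted p = 0.0005, edgeR, in WT and 2.37 in KO) and Ctsd (1.57 and 1.41) rose, and Ctsc fell (-1.10 and -1.05, the KO call being lost without naive KO 1, adjusted p = 0.0627). Asah1, which encodes acid ceramidase, rose by 0.81 in WT and 0.60 in KO, where the call was lost without naive KO 2 (adjusted p = 0.193). Ctss, which encodes the cathepsin that cuts the invariant chain in B cells, fell by 0.73 on the log2 scale in both WT (adjusted p = 0.00629) and KO (adjusted p = 0.00628), a gene named here after its values were seen. Its calls were lost without naive WT 1 (adjusted p = 0.0541) and without naive KO 1 (0.0886). Ctse was the 1 gene of the list called between iGCB KO and iGCB WT, where 1.27% of all genes were called. It was lower in KO (17.7 ± 1.4 against 39.0 ± 5.2 CPM, SD, n = 3 each, log2 difference -1.14, SE 0.19, adjusted p = 0.0169). The call was lost without iGCB WT 1, iGCB WT 3 or any iGCB KO library.

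Of 9 measured genes of class II turnover and surface partners, 4 were higher and 3 lower in iGCB WT, and 4 were higher and 2 lower in iGCB KO. Marchf1, which encodes the ubiquitin ligase that marks surface class II for breakdown, fell by 2.93 on the log2 scale in WT (SE 0.21, adjusted p = 1.94e-06, edgeR) and by 2.06 in KO. Its level was 305 ± 45 CPM for naive WT, 263 ± 29 for naive KO, 39.9 ± 3.6 for iGCB WT and 63.2 ± 15.2 for iGCB KO (SD, n = 2 for each naive group and n = 3 for each iGCB group). Cd83, which opposes that ligase, rose by 0.85 in WT and by 1.71 in KO. The tetraspanin genes Cd82 (1.39 and 1.54) and Cd63 (3.11 and 3.29) rose, and Cd37 fell by 1.57 in WT and by 0.97 in KO.

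Of 11 genes of costimulation, 5 were higher and 4 lower in iGCB WT and 5 higher and 5 lower in iGCB KO. Cd80, a ligand of CD28, rose by 3.98 in WT (SE 0.32, adjusted p = 5.04e-06, edgeR) and by 4.16 in KO, whereas its partner Cd86, named after its values were seen, fell by 2.62 and 2.67. The TNF family ligands Tnfsf9 (4.25 and 4.12) and Tnfsf4 (3.37 and 4.22) rose from means under 2 CPM. Cd70 was at 2.27 ± 0.98 CPM (SD, n = 3) for iGCB WT, at 2.54 ± 0.35 (n = 3) for iGCB KO and at 0 in both naive KO libraries.

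**Figure D5:**
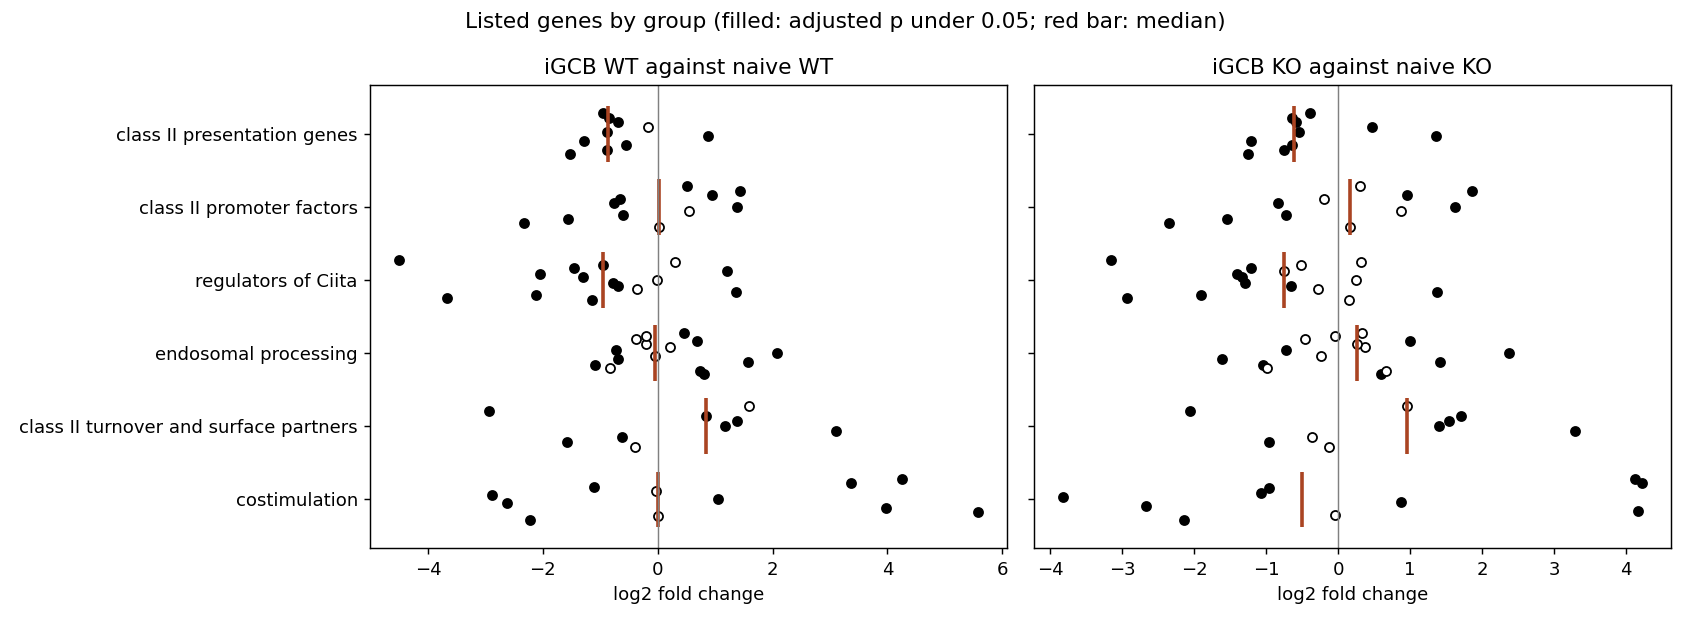
Log2 fold changes of iGCB against naive cells (horizontal axes) in WT and KO for the 10 class II genes and 5 lists of related genes, with 1 point per gene, filled where the adjusted p was under 0.05, and a red bar at the median of each list. Genes at 0 in a whole group are left out (Cd70 in KO), and the class II genes lie mostly below 0 while the other lists, apart from the regulators of Ciita, spread to both sides.

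Of 11 measured genes that neighbour the class II genes on chromosome 17, 4 were higher and 4 lower in iGCB against naive cells in each genotype. Psmb8, an immunoproteasome subunit gene, rose by 1.79 on the log2 scale in WT (SE 0.32, adjusted p = 0.000934, edgeR) and by 1.74 in KO, and Psmb9 by 1.07 in WT and 0.96 in KO. The WT call of Psmb9 was lost without naive WT 2 (adjusted p = 0.104), and its KO call without naive KO 2 (adjusted p = 0.149), iGCB KO 2 (0.0570) or iGCB KO 3 (0.0513). H2-Eb2 fell by 0.77 in WT and 1.08 in KO and Btnl2 by 3.02 in WT and 2.14 in KO. H2-Ea, the I-E alpha chain gene, was at 0.878 and 2.80 CPM in naive WT and 2.49 and 4.66 in naive KO, far below its partner H2-Eb1, and 4 of the 6 iGCB libraries had 0 counts. The other 2 had 2 counts each.

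Across the 10 libraries the profiles of the 3 classical chains were alike, which is a description because the points share the 2 stages. Pearson's r of log2 CPM was 0.976 between H2-Aa and H2-Ab1, 0.985 between H2-Aa and H2-Eb1 and 0.969 between H2-Ab1 and H2-Eb1. Cd74 had lower values with them, at 0.903 (H2-Aa), 0.926 (H2-Ab1) and 0.880 (H2-Eb1), and 0.957 with Ciita. Among 9442 genes outside the set, Ncf4, an NADPH oxidase subunit gene, was the most like the mean profile of H2-Aa, H2-Ab1, H2-Eb1 and Cd74 (r = 0.992), followed by Tmem167b (0.980), Adck2 (0.975), Rabgef1 (0.974) and Lsp1 (0.973). Ncf4 read 102 CPM (naive WT), 76.5 (naive KO), 36.2 (iGCB WT) and 29.1 (iGCB KO) on average. Most like Ciita were Marchf1 (0.991), Egr1 (0.988), Psd4 (0.988), Tlr9 (0.988) and Mrgpre (0.988). These likenesses run over 10 libraries and carry no test.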

How the data were processed

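The data were RNA-seq libraries of naive and iGCB B cells. The deposited values were whole-number counts per gene symbol, made by the authors with featureCounts on mm10, per the submitters' processing notes. Not given in the sources used here were the aligner, its version, the annotation and the strand setting of the counting. Among counts of 1 to 20, 17.7% to 26.9% were odd, as when both mates of a pair are counted, so counts are not independent fragments.

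Groups came from the labels. Genes were filtered with edgeR's filterByExpr (minimum count 10), scaled with TMM factors and fitted with a quasi-likelihood model over the 4 groups (edgeR 4.0.16, R 4.3.3; 21010 genes, 6 residual degrees of freedom). Two-sided p-values were adjusted by Benjamini-Hochberg over all genes (threshold 0.05). SE is the fold change over the root of F. CPM used TMM-scaled totals, as mean ± SD. Lengths (all annotated exons of a gene, merged) and positions came from GENCODE M21. Ratios and shares were tested by exact permutation over libraries. The scripts were tested on simulated data.

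Alternatives were RLE or library size alone as scaling, DESeq2 1.42.0, no filter, a replicate block, a sex term, only the groups compared, and leaving out each library. Restriction to male libraries was added after the data were seen. The members and lists were chosen with earlier results of these data known. All 10 genes were named, with up to 4 called genes of each list per comparison and the 5 profiles most like the classical chains or Ciita. Protein sequences were not used here.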

Additional observations from a re-analysis of the deposited data

How the results depend on the processing

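Counts of called genes among the 10 moved with the fit. In naive KO against WT, 1 gene was lower with DESeq2 or no low-count filter. In iGCB KO against WT, 1 was lower with DESeq2, no filter, library size alone, the replicate block, a sex term, only the groups compared, or male libraries only (0 to 1 on leaving out a library). Also there, 1 was higher with DESeq2, a sex term, only the groups compared or male libraries only. In iGCB KO against naive KO, 3 were lower with the replicate block, 5 with a sex term, 4 with male libraries only, and 3 to 8 on leaving out a library. There, 1 was higher with RLE scaling, library size alone, no filter or the replicate block, and 1 to 2 on leaving out a library. The causes were not tested. The counts in iGCB WT against naive WT stayed within 1.5 times.

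The design text speaks of pairs of WT and KO, but the labels do not say what a pair shares. Deviations of same-numbered libraries correlated at 0.46, -0.12 and 0.04 in iGCB (10103 genes). Not every iGCB library correlated best with its own number, so the numbers did not pair the iGCB samples. In naive cells same-numbered libraries correlated at 0.55 and also shared their sex, so pairing there stays possible. With 2 libraries per group only the sign of that value is free. With the block the naive H2-Oa difference was -1.07 (adjusted p = 0.0545, edgeR). With the block, iGCB WT against naive WT had 1 higher and 6 lower, with H2-Aa (adjusted p = 0.123) and H2-Eb1 (0.0581) not called. In iGCB KO against naive KO the block left H2-Aa (0.121), H2-Eb1 (0.158), H2-DMb1 (0.0993), H2-DMb2 (0.222), H2-Oa (0.0651) and H2-Ob (0.291) uncalled, and in iGCB KO against WT it called H2-Oa (-0.86, 0.0122).

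Without division by length the H2-O to H2-DM difference turned to 0.16 in naive cells and 0.18 in iGCB, KO against WT. On leaving out a library it ran from -0.12 to 0.058 in naive cells (above 0 without naive KO 2) and from -0.16 to 0.0012 in iGCB (above 0 without iGCB WT 1). The share of counts, KO minus WT, ran from -0.18 to 0.11 points in naive cells (above 0 without naive WT 1 or naive KO 2) and from -0.057 to 0.099 in iGCB (below 0 without iGCB KO 2). The stage differences of both measures kept their sign.

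Single genes changed sign in KO against WT and in the difference between stages, with values near 0. With library size alone, the naive values were 0.025 for H2-Aa, 0.035 for Cd74 and 0.10 for H2-Ob, and the differences between stages were -0.069 for H2-Ab1, -0.020 for H2-Eb1 and -0.017 for Ciita. With only the groups compared, H2-Ob was at 0.019 in naive cells. On leaving out a library the naive values ran from -0.22 to 0.0046 for Cd74, from -0.022 to 0.13 for Ciita and from -0.14 to 0.057 for H2-Ob, and Cd74 in iGCB from -0.0033 to 0.25. The difference between stages ran from -0.26 to 0.021 for H2-Aa, from -0.18 to 0.39 for H2-Ab1 and from -0.10 to 0.29 for H2-Eb1. RLE scaling moved the median of all genes by -0.11 in iGCB KO against naive KO. Library size alone moved it by 0.12 in naive KO against WT and by -0.14 in the difference between stages. Groups of 2 or 3 libraries limit the precision of all these values. The lowest count of any of the 10 genes in any library was 885 (H2-Oa).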
